A study of Mus musculus with 18 samples.

Results

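The 48 genes described here encode the ligands, receptors, antagonists, Smads and target genes of TGF-beta and bone morphogenetic protein (BMP) signalling. They were chosen by symbol, as the rows of both count tables that carry a listed name, and they are 48 of 24356 symbols held by both tables. The list gives symbols in capitals (TGFB1, TGFBR3, SMAD3 or PMEPA1, for example) and rows were matched regardless of case. By role they are 9 ligands, 5 genes of ligand storage and processing, 4 secreted antagonists, 6 type I receptors, 4 type II receptors, a co-receptor and a decoy receptor, 6 receptor-activated or common Smads, 4 inhibitory Smads and ubiquitin ligases, 3 nuclear co-repressors and 5 target genes. Ligands of this family are secreted as dimers, and TGF-beta is held inactive in the matrix by latent TGF-beta binding proteins until it is released. An active ligand brings type I and type II receptor kinases together, receptor-activated Smads are phosphorylated, and with Smad4 they move to the nucleus and change transcription. In mammary epithelium the pathway is known for restraining growth and for epithelial-mesenchymal transition, and inhibitory Smads, ubiquitin ligases and secreted antagonists limit it.

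RNA was measured in 168FARN and in 67NR, lines of tumour cells from the mouse mammary gland. Each line was present as WT cells, after KO of *Kmt2c* and after KO of *Kmt2d*. The paper describes both lines as not metastatic before a KO. After injection into mice, it reported brain metastases from the KO cells of both lines. *Kmt2c* and *Kmt2d* encode related histone methyltransferases that act at enhancers. KO cells were pools, not clones, sorted after a transient transfection with a Cas9-GFP plasmid and mCherry-tagged sgRNAs against exon 1 of 1 gene, and all cells grew in the same serum-containing medium, with no ligand added in the labels. In the paper's sequencing of the targeted regions, the share of mutant reads was lowest in the *Kmt2c* KO pool of 67NR. Part of the reads there were not mutant. Loss of a gene below means its KO pool as a whole. WT libraries of 168FARN are named for a control sgRNA (sgControl) and those of 67NR as WT. Whether those WT cells were prepared alike is not stated. Each of the 6 groups had 3 replicates, known by number. The study defines replicates as collections of a cell line with 1 passage between them. The p-values below measure the spread between these libraries and not the spread between independently made pools. An effect of the KO and other differences between the cell pools cannot be told apart by them.

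Gene counts summed to 14359760 to 43427382 reads in a 168FARN library and to 40951775 to 79251530 reads in a 67NR library. A count of 0 allows a level of up to 0.0685 to 0.216 CPM, the reads of a gene scaled to library size, in 168FARN and 0.0337 to 0.0775 CPM in 67NR, from counting error only, taking 3 reads as the limit. In 67NR, 91.2 to 96.2% of all counts from 1 to 20 were even numbers, against 39.5 to 47.2% in 168FARN. The cause was not tested. The limit of 3 reads takes each count as 1 independent read, which was not checked for 67NR. *Rn45s*, a ribosomal RNA, took 28.7% of the reads of *Kmt2d* KO replicate 3 of 67NR and 0.495 to 2.45% in the other 67NR libraries. In each genotype of both lines, replicate 3 stood apart. Its counts differed from those of replicates 1 and 2 with a chi-square of 291 to 702 per degree of freedom in 168FARN and 219 to 1510 in 67NR, against 12.1 to 108 and 43.4 to 68.4 between replicates 1 and 2. In 67NR, *Kmt2c* RNA was at 84.9 to 95.9 CPM in *Kmt2c* KO, 93.1 to 110 CPM in *Kmt2d* KO and 53.6 to 62.0 CPM in WT cells. *Kmt2d* RNA was at 92.4 to 142.9 CPM in *Kmt2d* KO, 102.2 to 159.7 CPM in *Kmt2c* KO and 81.5 to 108.2 CPM in WT. In 168FARN, *Kmt2c* lay at 46.5 to 99.4 CPM in its KO and 43.9 to 116.4 CPM in WT, and *Kmt2d* at 133.3 to 302.3 and 102.6 to 164.4 CPM. A cut in exon 1 need not lower RNA, so these levels do not check the labels. The paper reported mutant reads in the targeted regions and lower protein by immunoblot in the KO cells of both lines.

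Levels are given in CPM after TMM normalization over all 18 libraries, and between genes as reads scaled to library size and exon length (RPKM). Between 37 and 38 of the 48 genes had a mean over 1 CPM in each of the 6 groups. *Nog*, which encodes the BMP antagonist noggin, had no read in any of the 18 libraries. The BMP ligand *Bmp2* had none except 6 reads in 1 library, *Kmt2d* KO replicate 3 of 67NR. *Bmp4* and *Bmp6*, ligands of the same family, the type I receptor *Bmpr1b* and *Smad9*, a Smad of the BMP branch, were also too low to test in either line. *Bmp7*, *Inhbb* and *Id4* were too low in 168FARN alone and *Grem1* and *Bambi* in 67NR alone, which left 39 genes tested in 168FARN and 40 in 67NR. The highest count of an untested gene was 16 reads in 168FARN and 12 reads in 67NR. Per length, the most abundant ligand in 67NR WT cells was *Inhba*, which encodes the activin subunit beta A, with a mean of 62.9 RPKM, or 33.7 RPKM without WT replicate 3, which held 121 RPKM, ahead of *Bmp7* at 15.2, *Tgfb1* at 11.7, *Tgfb2* at 8.76 and *Tgfb3* at 8.61 RPKM. Over replicates, the range of *Tgfb1* overlapped with those of *Bmp7* and *Tgfb2*, and that of *Tgfb2* with that of *Tgfb3*, while *Inhba* lay above all of them. In 168FARN WT cells the order was *Tgfb1* at 15.9 RPKM, *Tgfb3* at 6.29 and *Inhba* at 1.71, with the other 6 ligands at no more than 0.0418 RPKM.

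**Figure D1:**
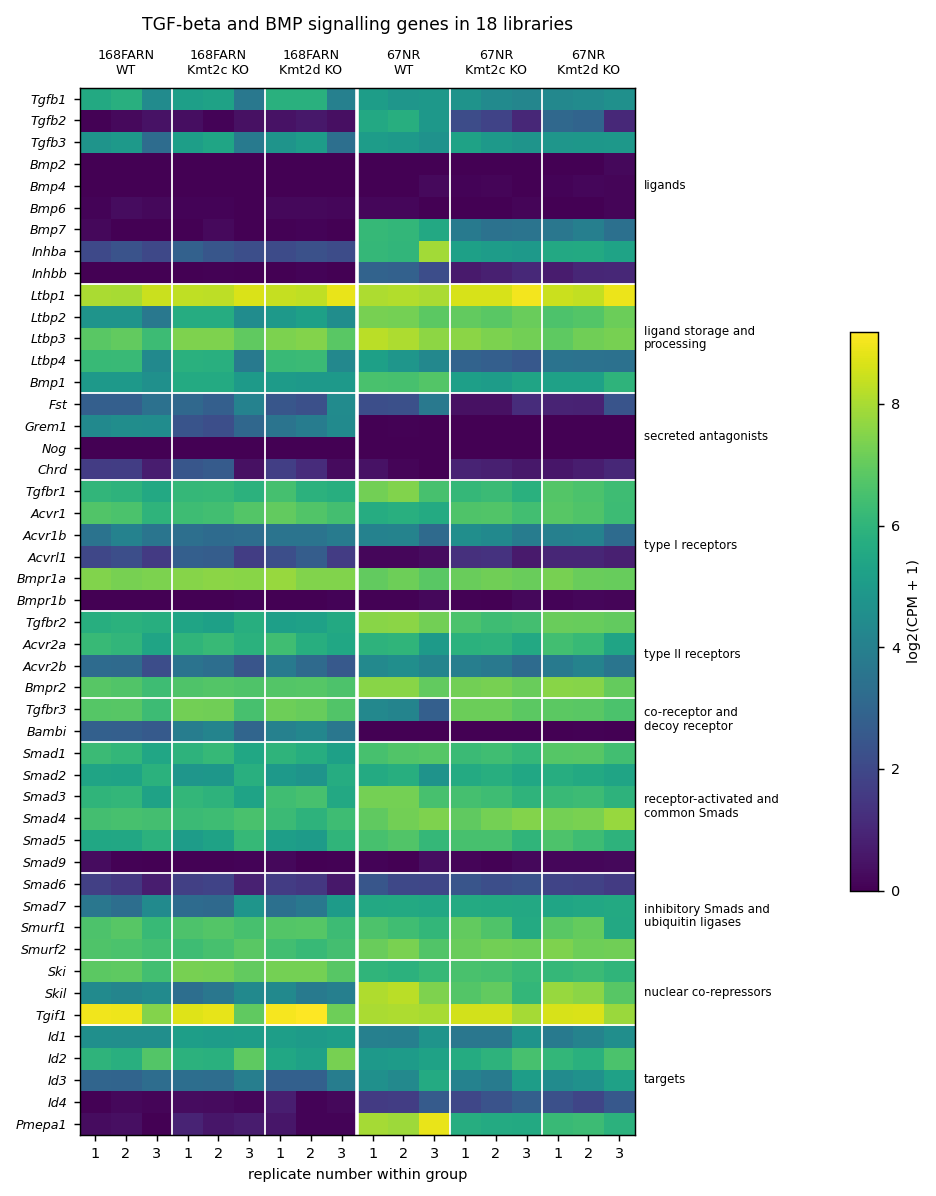
Level of the 48 genes in each of the 18 libraries, as log2(CPM + 1) in colour. Rows are genes grouped by role, columns are replicates 1 to 3 of each line and genotype, and white lines divide them. *Bmp7*, *Inhba*, *Inhbb*, *Skil* and *Pmepa1* are brighter in 67NR WT than in 168FARN WT cells, *Grem1* and *Bambi* are dark throughout 67NR, and *Tgfbr3* is dim in the 3 67NR WT libraries.

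Promoter sequences are printed for *Tgfb2*, *Inhba*, *Inhbb* and *Id2*, a part of the genes whose RNA fell or rose together in both KO pools of 67NR. *Ltbp3*, *Ltbp4*, *Smad3* and *Acvr1* did so too and had a start site, but are not printed. The sequences are the 250 bases upstream of a RefSeq start site on GRCm38.p6, a build that differs from the mm9 build of the counts. A start site was found for 33 of the 48 genes, with 45 sites in all. The entries without one were *Acvrl1*, *Bambi*, *Bmp1*, *Bmp2*, *Bmp7*, *Fst*, *Id1*, *Nog*, *Pmepa1*, *Skil*, *Smad2*, *Smad4*, *Smad7*, *Tgfb3* and *Tgfbr3*. Those of *Tgfb2* (chr1:186705990-186706239, minus strand), *Inhba* (chr13:16011601-16011850, plus strand), *Inhbb* (chr1:119422249-119422498, minus strand) and *Id2* (chr12:25096093-25096342, minus strand) read, 5′ to 3′, with capitals marking CAGAC or GGCGCC on either strand:
Tgfb2: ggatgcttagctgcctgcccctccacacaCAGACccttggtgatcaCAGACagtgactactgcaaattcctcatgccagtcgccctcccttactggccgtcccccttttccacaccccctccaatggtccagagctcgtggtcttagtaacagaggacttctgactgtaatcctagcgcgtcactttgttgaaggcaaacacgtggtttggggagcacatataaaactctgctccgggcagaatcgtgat
Inhba: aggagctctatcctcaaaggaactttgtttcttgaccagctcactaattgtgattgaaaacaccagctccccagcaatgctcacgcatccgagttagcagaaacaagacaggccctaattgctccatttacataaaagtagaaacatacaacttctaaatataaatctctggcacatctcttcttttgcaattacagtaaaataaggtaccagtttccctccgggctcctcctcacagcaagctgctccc
Inhbb: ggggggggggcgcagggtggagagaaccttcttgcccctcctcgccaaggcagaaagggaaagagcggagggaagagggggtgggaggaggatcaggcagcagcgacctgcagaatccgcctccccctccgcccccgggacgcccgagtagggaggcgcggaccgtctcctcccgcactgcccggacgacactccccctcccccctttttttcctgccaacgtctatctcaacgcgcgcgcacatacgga
Id2: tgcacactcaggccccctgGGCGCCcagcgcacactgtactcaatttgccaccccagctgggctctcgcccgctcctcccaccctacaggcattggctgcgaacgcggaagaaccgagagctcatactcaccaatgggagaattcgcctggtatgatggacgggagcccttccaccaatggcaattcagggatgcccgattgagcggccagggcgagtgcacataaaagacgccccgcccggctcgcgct

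Motifs were searched on both strands. CAGAC, the core bound by Smad3 and Smad4, was present in 42.2% of 32851 mouse promoters of the same length and in 20 of the 45 (44.4%). The palindrome GTCTAGAC stood in 0.167% of all promoters and in 0 of the 45. GGCGCC, a GC-rich element used by Smads of the BMP branch, stood in 9.59% of all and in 13 of the 45 (28.9%). These 13 include 2 overlapping windows of *Ltbp4* that hold the same copy. Base composition was not compared between these windows and all promoters. TGACTCA, the AP-1 site, stood in 4.46% of all and in 0 of the 45. None of these motifs lies within another. *Tgfb2* holds 2 copies of CAGAC and *Id2* 1 copy of GGCGCC, and *Inhba* and *Inhbb* hold none of the 4 in this window. A match describes letters and does not show a bound site.

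In 67NR cells, loss of either gene was accompanied by lower RNA of 4 ligands, *Tgfb2*, *Bmp7*, *Inhba* and *Inhbb*, and of the TGF-beta target *Pmepa1*, and by higher RNA of the co-receptor gene *Tgfbr3*, the receptor genes *Acvr1* and *Acvrl1* and the BMP target *Id2*. In bulk RNA, fewer cells that express a gene and less RNA per cell cannot be told apart. Called genes are those past an adjusted p of 0.1 and a log2 fold change of 0.6 in either direction, from the quasi-likelihood test of edgeR and Benjamini-Hochberg adjustment over all genes. In *Kmt2c* KO against WT cells, 5 of the 40 tested genes rose and 14 fell, or 47.5%, beside 35.3% of the 13665 genes tested (17.9% higher and 17.4% lower), and their median log2 fold change was -0.17 against -0.02 over all genes. In *Kmt2d* KO against WT cells, 4 rose and 9 fell, or 32.5% beside 25.5% of all genes (13.9% higher and 11.6% lower), with medians of -0.10 and -0.02. Of these, 13 were called in both comparisons, 4 higher and 9 lower, but both use the same WT libraries. Scaling by total counts moved the median of all genes in *Kmt2d* KO from -0.02 to -0.21, with 1431 genes higher and 2143 lower instead of 1903 and 1581, and then 4 of the genes described here rose and 12 fell.

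Marker genes of cell type moved with these results. The summed level of 8 epithelial markers was 2197 to 3401 CPM in 67NR WT cells, with 7 over 1 CPM and *Krt5* at 0, and 496 to 797 CPM in *Kmt2c* KO and 826 to 1624 CPM in *Kmt2d* KO cells. The summed level of 6 mesenchymal markers was 337 to 1342 CPM in WT cells, 3176 to 4935 CPM in *Kmt2c* KO and 2364 to 4598 CPM in *Kmt2d* KO cells. Their part in the results was not tested. Of 5 leukocyte markers 1 was over 1 CPM in each group, with a summed level of up to 95.0 CPM, and the 5 endothelial markers summed to at most 5.42 CPM. In 168FARN, 1 of the 8 epithelial markers and all 6 mesenchymal markers exceeded 1 CPM in each group, and *Epcam* and *Krt5* were at 0.

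**Figure D2:**
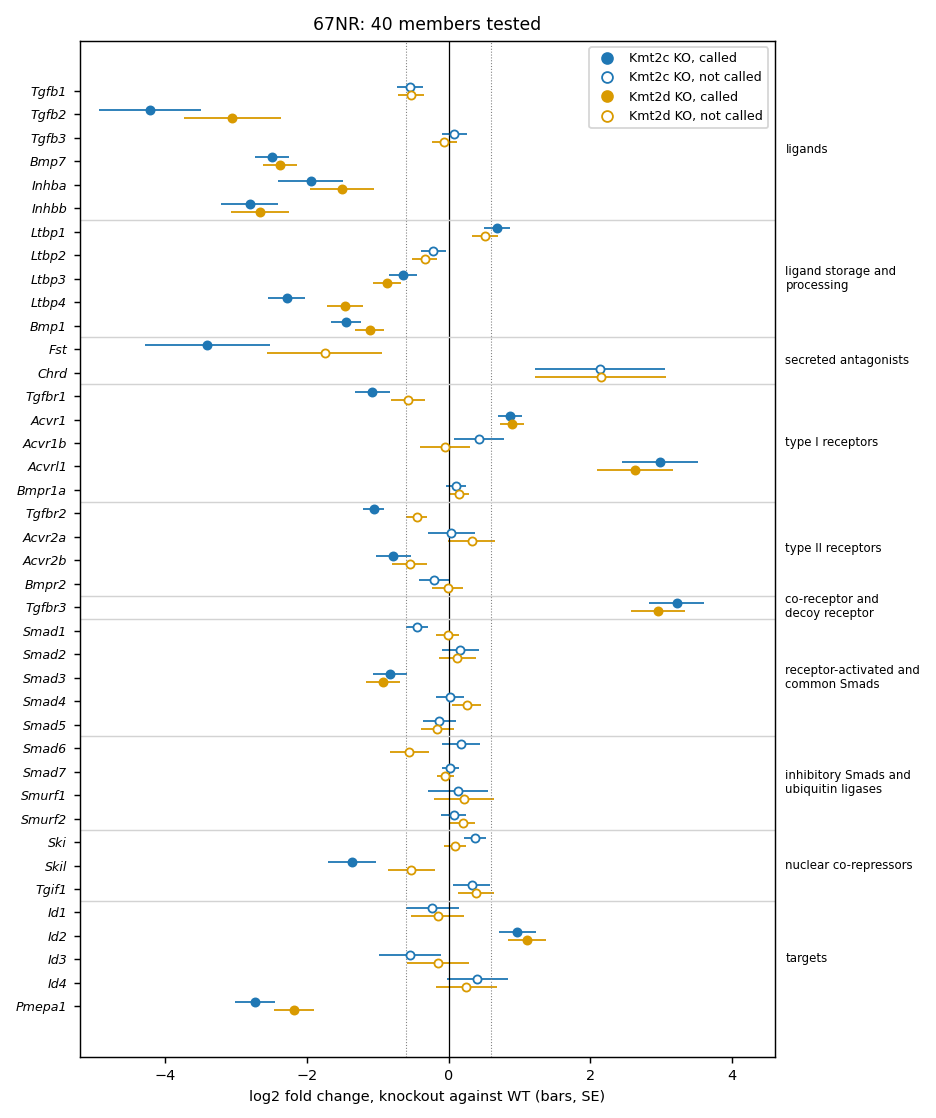
Log2 fold change of each KO against WT in 67NR for the 40 genes tested, with the standard error as bars. Filled points were called and open points were not, dotted lines mark 0.6 in each direction, and role groups are separated by grey lines. *Tgfb2*, *Bmp7*, *Inhbb* and *Pmepa1* lie at or below -2.18 and *Acvrl1* and *Tgfbr3* at or above 2.63 in both KO pools.

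Among the ligands of 67NR, 4 of the 6 tested fell in each KO. *Tgfb2*, 1 of 3 TGF-beta isoforms, lies on mm9 chromosome 1 from 188447065 to 188529871. Replicates 1, 2 and 3 of WT cells held 45.7, 52.8 and 28.7 CPM, those of the *Kmt2c* KO pool 3.38, 2.61 and 1.01 CPM and those of the *Kmt2d* KO pool 7.56, 6.70 and 1.08 CPM. Every KO library lay below every WT library, and replicate 3 was the lowest of each genotype. The log2 fold change was -4.20 (SE 0.72, adjusted p = 0.0019) for *Kmt2c* KO and -3.05 (SE 0.68, adjusted p = 0.012) for *Kmt2d* KO. *Bmp7*, a BMP ligand made by many epithelia, was at 69.8, 67.1 and 46.2 CPM (WT), 12.8, 10.01 and 10.5 CPM (*Kmt2c* KO) and 11.4, 14.5 and 9.51 CPM (*Kmt2d* KO). All 6 KO libraries of *Bmp7* were lower than the lowest WT library. Its log2 fold changes were -2.49 (SE 0.24, adjusted p = 6.5e-05) and -2.38 (SE 0.24, adjusted p = 1.4e-04).

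*Inhba*, on mm9 chromosome 13 from 16103684 to 16119044, was at 68.2, 65.04 and 240.1 CPM without a KO, 36.2, 32.9 and 29.6 with *Kmt2c* KO and 45.5, 47.3 and 39.4 with *Kmt2d* KO. WT replicate 3 stood far above the other WT libraries, and the groups did not overlap. The log2 fold changes were -1.95 (SE 0.46, adjusted p = 0.01) for *Kmt2c* KO and -1.51 (SE 0.45, adjusted p = 0.042) for *Kmt2d* KO cells. Without replicate 3 of every genotype they were -0.99, adjusted p = 1.2e-06 and -0.53, adjusted p = 0.0013, so the second no longer passed the fold threshold. It also missed the p threshold without *Kmt2d* KO replicate 1, at -1.52 with an adjusted p of 0.11. *Inhbb*, which encodes the activin subunit beta B, was at 6.63, 6.27 and 3.45 CPM in WT replicates, compared with 0.569, 0.731 and 1.11 after loss of *Kmt2c* and 0.619, 0.968 and 1.03 after loss of *Kmt2d*. It was low in every KO library and did not overlap with WT. Its log2 fold changes were -2.80 (SE 0.41, adjusted p = 7.3e-04) and -2.66 (SE 0.40, adjusted p = 0.0016). The remaining isoforms *Tgfb1*, at -0.54 and -0.53, and *Tgfb3*, at 0.08 and -0.06, were not called.

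Genes that store or process ligands mostly fell, with 1 higher and 3 lower of 5 in *Kmt2c* KO and 3 lower of 5 in *Kmt2d* KO cells. *Ltbp4*, a latent TGF-beta binding protein, was at 36.7, 27.2 and 18.6 CPM (WT), 6.63, 5.93 and 4.76 CPM (*Kmt2c* KO) and 10.4, 10.1 and 9.74 CPM (*Kmt2d* KO). The groups were separate, with *Kmt2c* KO lowest. The log2 fold changes from WT were -2.28 (SE 0.26, adjusted p = 2.0e-04) and -1.46 (SE 0.26, adjusted p = 0.0036). *Bmp1*, a metalloproteinase that processes procollagen and cleaves chordin, was at 92.8, 90.5 and 106 CPM without a KO, 35.8, 32.5 and 40.1 with *Kmt2c* KO and 37.1, 36.9 and 61.4 with *Kmt2d* KO. Both KO pools lay below WT throughout. Its log2 fold changes were -1.44 (SE 0.21, adjusted p = 7.6e-04) and -1.11 (SE 0.21, adjusted p = 0.0049).

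*Ltbp3*, another protein of this family, was at 304, 264 and 197 CPM in WT replicates, compared with 191, 163 and 148 after loss of *Kmt2c* and 119, 147 and 158 after loss of *Kmt2d*. The KO libraries stayed below WT replicate 3, the lowest WT library, and its log2 fold changes were -0.64 (SE 0.20, adjusted p = 0.032) and -0.87 (SE 0.20, adjusted p = 0.012). The *Kmt2c* KO call of *Ltbp3* was lost without WT replicate 1 (-0.50, adjusted p = 0.11), *Kmt2c* KO replicate 2 (-0.62, adjusted p = 0.10) or *Kmt2c* KO replicate 3 (-0.56, adjusted p = 0.10). Its exons overlap those of a gene on the other strand, and whether counting used strand is not given in the sources used here, so its count is uncertain. *Ltbp1*, which binds latent TGF-beta in the matrix, was at 264, 276 and 258 CPM (WT), 397, 397 and 517 CPM (*Kmt2c* KO) and 348, 321 and 483 CPM (*Kmt2d* KO). All KO libraries exceeded all WT libraries, by a log2 fold change of 0.69 (SE 0.18, adjusted p = 0.018) in *Kmt2c* KO, which was called, and 0.51 (SE 0.18, adjusted p = 0.077) in *Kmt2d* KO, which was under the fold threshold. The call was lost without *Kmt2c* KO replicate 3, at 0.55 with an adjusted p of 0.062. *Ltbp2* was not called, at -0.22 and -0.34.

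**Figure D3:**
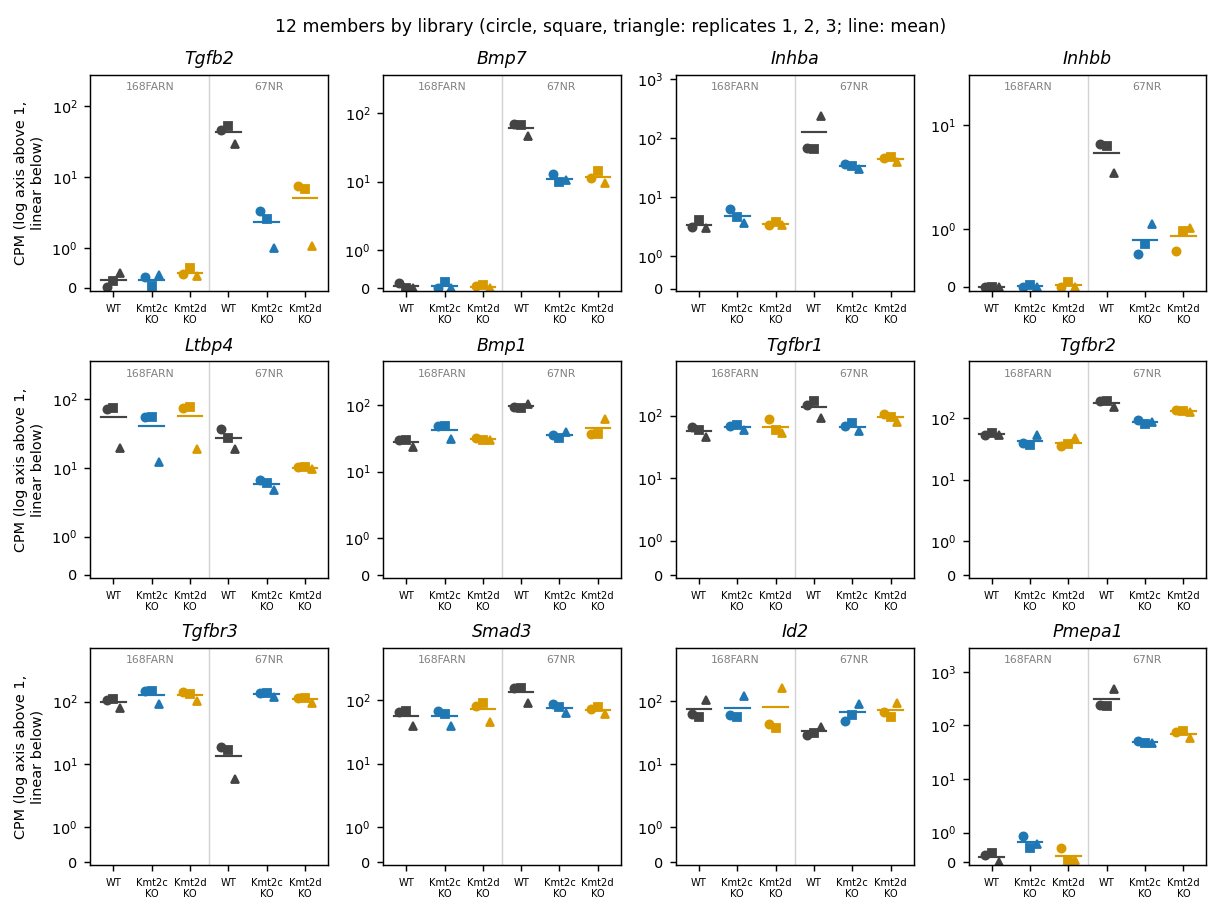
Level of 12 genes in each of the 18 libraries, in CPM on an axis that is logarithmic above 1 and linear below. Black points are WT, blue *Kmt2c* KO and orange *Kmt2d* KO libraries, symbols give replicates 1 to 3, and lines are means of 3. In 67NR, *Tgfb2*, *Bmp7*, *Inhba*, *Inhbb*, *Ltbp4*, *Bmp1*, *Smad3* and *Pmepa1* lie lower in every KO library than in every WT library, and *Tgfbr3* and *Id2* higher.

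Of the secreted antagonists, *Fst*, which encodes the activin-binding protein follistatin, was at 3.67, 3.76 and 11.98 CPM without a KO, 0.339, 0.318 and 1.25 with *Kmt2c* KO and 0.862, 0.856 and 4.21 with *Kmt2d* KO. Replicate 3 was the highest in each genotype, and *Kmt2d* KO overlapped with WT through it. *Fst* fell in *Kmt2c* KO cells, with a log2 fold change of -3.40 (SE 0.88, adjusted p = 0.015), and was not called in *Kmt2d* KO cells at -1.74 (SE 0.81, adjusted p = 0.16). Taking the replicate number as a block gave the latter an adjusted p of 1.2e-04. Over all genes, this block called 41.3% for *Kmt2c* KO and 32.7% for *Kmt2d* KO. *Chrd*, which encodes the BMP antagonist chordin, was at 0.360, 0.0844 and 0 CPM in WT replicates, compared with 0.895, 0.731 and 0.505 after loss of *Kmt2c* and 0.487, 0.651 and 1.01 after loss of *Kmt2d*. Its KO libraries exceeded the WT libraries, but levels were low and the log2 fold changes of 2.13 (SE 0.92, adjusted p = 0.11) and 2.14 (SE 0.92, adjusted p = 0.13) were not called. The block gave adjusted p-values of 0.035 and 0.04, and *Chrd* exons overlap a gene on the other strand.

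Receptor genes moved in both directions. *Tgfbr3*, on mm9 chromosome 5 from 107535589 to 107718648, encodes betaglycan, which presents TGF-beta to the signalling receptors. It was at 18.7, 16.8 and 5.84 CPM (WT), 138, 139 and 116 CPM (*Kmt2c* KO) and 116, 114 and 94.1 CPM (*Kmt2d* KO). The WT libraries were far below all KO libraries, with log2 fold changes of 3.22 (SE 0.39, adjusted p = 2.6e-04) and 2.96 (SE 0.38, adjusted p = 6.8e-04). *Acvr1*, a type I receptor of the BMP branch, was at 51.05, 54.8 and 48.6 CPM without a KO, 100.1, 104 and 84.2 with *Kmt2c* KO and 110.1, 101 and 78.3 with *Kmt2d* KO. It was higher in every KO library, by 0.87 (SE 0.17, adjusted p = 0.0038) and 0.89 (SE 0.17, adjusted p = 0.0052) on the log2 scale. *Acvrl1*, a type I receptor best known from endothelium, was at 0.112, 0.113 and 0.221 CPM in WT replicates, compared with 1.44, 1.53 and 0.577 after loss of *Kmt2c* and 0.994, 1.01 and 0.749 after loss of *Kmt2d*. The WT values rest on 8 to 10 reads a library, its exons overlap a gene on the other strand, and the groups were separate. Its log2 fold changes were 2.98 (SE 0.54, adjusted p = 0.0025) and 2.63 (SE 0.54, adjusted p = 0.0074).

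The receptor pair for TGF-beta itself was lower in *Kmt2c* KO cells. *Tgfbr1*, the type I receptor, was at 149, 172 and 91.2 CPM (WT), 68.3, 75.5 and 56.3 CPM (*Kmt2c* KO) and 106, 95.5 and 78.9 CPM (*Kmt2d* KO). *Kmt2c* KO libraries lay below all WT libraries, while *Kmt2d* KO libraries overlapped with WT. Its changes on the log2 scale were -1.07 (SE 0.24, adjusted p = 0.0085), which was called, and -0.57 (SE 0.24, adjusted p = 0.13), which was not. *Tgfbr2*, the type II receptor, was at 189, 193 and 149 CPM without a KO, 94.1, 80.5 and 85.8 with *Kmt2c* KO and 133, 133 and 126 with *Kmt2d* KO. All 3 genotypes were separate, *Kmt2c* KO lowest and WT highest. The log2 fold changes were -1.06 (SE 0.15, adjusted p = 6.1e-04) and -0.45 (SE 0.15, adjusted p = 0.055), the second under the fold threshold.

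*Acvr2b*, a type II receptor for activins, was at 19.1, 22.5 and 16.5 CPM in WT replicates, compared with 14.1, 12.3 and 8.27 after loss of *Kmt2c* and 12.6, 16.5 and 10.98 after loss of *Kmt2d*. The lowest WT library was level with the highest *Kmt2d* KO library. *Kmt2c* KO libraries lay below all WT libraries and overlapped with those of *Kmt2d* KO. It fell in *Kmt2c* KO cells by a log2 fold change of -0.78 (SE 0.25, adjusted p = 0.04) and was not called in *Kmt2d* KO cells at -0.55 (SE 0.25, adjusted p = 0.16). The call was lost without WT replicate 2 (-0.67, adjusted p = 0.11) or *Kmt2c* KO replicate 3 (-0.59, adjusted p = 0.11). The other receptor genes tested, *Acvr1b*, *Bmpr1a*, *Acvr2a* and *Bmpr2*, were not called, with log2 fold changes from -0.20 to 0.43 for *Kmt2c* KO and from -0.05 to 0.33 for *Kmt2d* KO. *Bmpr2*, the BMP type II receptor, had the highest level per length among the type II receptors of WT cells, with a mean of 47.2 RPKM against 21.9 RPKM for *Tgfbr2*.

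Among 5 receptor-activated and common Smads tested, *Smad3*, which carries TGF-beta and activin signals, was the one called in each KO. It was at 153, 154 and 89.9 CPM (WT), 87.2, 79.2 and 62.1 CPM (*Kmt2c* KO) and 73.3, 77.1 and 59.8 CPM (*Kmt2d* KO). Replicate 3 was lowest in each genotype, and the KO libraries did not reach the WT libraries. *Smad3* had log2 fold changes of -0.83 (SE 0.24, adjusted p = 0.025) and -0.93 (SE 0.24, adjusted p = 0.022). *Smad1*, *Smad2*, *Smad4* and *Smad5* ranged from -0.45 to 0.17 for *Kmt2c* KO and from -0.16 to 0.26 for *Kmt2d* KO and were not called. The 4 inhibitory Smads and ubiquitin ligases, *Smad6*, *Smad7*, *Smurf1* and *Smurf2*, were not called in either KO. *Smad7*, which encodes an inhibitor of type I receptors, was at 45.2, 46.6 and 43.96 CPM without a KO, 47.9, 47.2 and 45.8 with *Kmt2c* KO and 41.3, 44.7 and 46.96 with *Kmt2d* KO. These 3 ranges overlapped, with log2 fold changes of 0.02 (SE 0.12, adjusted p = 0.91) and -0.04 (SE 0.12, adjusted p = 0.84). *Smad6*, an inhibitory Smad of the BMP branch and the member of its class with the smallest p, was at 4.56, 2.997 and 2.92 CPM in WT replicates, compared with 4.39, 3.67 and 4.02 after loss of *Kmt2c* and 2.66, 2.49 and 2.04 after loss of *Kmt2d*. *Kmt2d* KO libraries lay under all others, but the change of -0.55 (SE 0.27, adjusted p = 0.18) was not called.

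Of the nuclear co-repressors, *Skil*, which encodes SnoN, was at 273, 299 and 169 CPM (WT), 104, 125 and 65.95 CPM (*Kmt2c* KO) and 218, 191 and 109 CPM (*Kmt2d* KO). *Kmt2c* KO libraries were below the WT libraries and *Kmt2d* KO libraries overlapped with them. *Skil* fell in *Kmt2c* KO cells, with a log2 fold change of -1.36 (SE 0.34, adjusted p = 0.013), and was not called in *Kmt2d* KO cells at -0.52 (SE 0.33, adjusted p = 0.31). The co-repressor genes *Ski*, at 0.37 and 0.09, and *Tgif1*, at 0.33 and 0.39, were not called.

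Target genes did not move as 1 group. *Pmepa1*, on mm9 chromosome 2 from 173049959 to 173102034, is induced by TGF-beta and encodes a membrane protein that restrains Smad signalling. It was at 244, 231 and 475 CPM without a KO, 51.3, 48.04 and 46.7 with *Kmt2c* KO and 73.9, 77.3 and 59.1 with *Kmt2d* KO. WT replicate 3 was the highest, as for *Inhba*, and all KO libraries were far below all WT libraries. On the log2 scale it differed from WT by -2.73 (SE 0.29, adjusted p = 1.1e-04) and -2.18 (SE 0.28, adjusted p = 6.4e-04), and -2.30, adjusted p = 4.9e-12 and -1.66, adjusted p = 6.2e-10 without replicate 3 of every genotype. *Id2*, an inhibitor of helix-loop-helix factors induced by BMP, was at 29.4, 31.6 and 38.6 CPM in WT replicates, compared with 48.9, 59.9 and 90.1 after loss of *Kmt2c* and 66.1, 56.2 and 94.5 after loss of *Kmt2d*. It was higher in every KO library than in any WT library, by 0.97 (SE 0.26, adjusted p = 0.019) and 1.11 (SE 0.26, adjusted p = 0.016) on the log2 scale. *Id1*, *Id3* and *Id4*, of the same family, were not called, with log2 fold changes from -0.54 to 0.41 for *Kmt2c* KO and from -0.15 to 0.25 for *Kmt2d* KO.

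Set against each other, *Kmt2c* KO and *Kmt2d* KO cells of 67NR gave 0 called genes of 40, beside 1.41% of all genes, by the quasi-likelihood test of edgeR and Benjamini-Hochberg adjustment. At an unadjusted p under 0.05 there were 5, beside 1494 of all 13665 genes. DESeq2 called 1, *Ltbp4*, beside 4.37% of all genes. Without replicate 3 of every genotype 8 were called, beside 12.6%. With the replicate block 5 were called, beside 7.29% of all genes. *Ltbp4* (-0.84, adjusted p = 0.018 with the block and 0.25 without), *Fst* (-1.54, 0.0063 and 0.53), *Tgfbr2* (-0.61, 0.013 and 0.13) and *Skil* (-0.82, 0.0025 and 0.41) were lower in *Kmt2c* KO cells, and *Smad6* was higher (0.73, 0.096 and 0.37). Of the 6 genes called in *Kmt2c* KO and not in *Kmt2d* KO cells against WT, *Fst*, *Tgfbr2* and *Skil* thus differed between the KO pools with the block and not without it, while for *Ltbp1*, *Tgfbr1* and *Acvr2b* neither fit called a difference. Over all genes, scaling by total counts gave 8 higher and 33 lower in place of 18 and 175, so the share of higher calls moved from 9.33% to 19.5%, while the count here stayed at 0.

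In 168FARN cells no gene of the 39 tested was called in either KO, beside 0.359% of 12253 genes for *Kmt2c* KO and 0.286% for *Kmt2d* KO. At an unadjusted p under 0.05 there were 5 and 2, beside 725 and 647 of all 12253 genes. DESeq2 called 3 in *Kmt2c* KO (*Grem1*, *Bambi* and *Bmp1*), beside 2.35% of all genes, and 1 in *Kmt2d* KO cells (*Bambi*), beside 2.02%. The replicate block gave 4 calls in *Kmt2c* KO, beside 7.23% of all genes, and 1 in *Kmt2d* KO cells, beside 5.9%. The median log2 fold changes were 0.11 and 0.13, against 0.01 over all genes in both. The log2 fold changes of the 39 genes ran from -2.04 (*Grem1*) to 1.85 (*Pmepa1*) in *Kmt2c* KO and from -0.48 (*Grem1*) to 1.43 (*Bambi*) in *Kmt2d* KO cells. Without replicate 3 of every genotype, 7 and 2 genes were called, beside 14.5% and 11% of all genes.

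*Grem1*, which encodes the BMP antagonist gremlin, was at 19.6, 21.5 and 21.3 CPM (WT), 4.18, 3.67 and 7.36 CPM (*Kmt2c* KO) and 10.6, 13.4 and 20.1 CPM (*Kmt2d* KO) in 168FARN. *Kmt2c* KO libraries were all lower than WT, and *Kmt2d* KO replicate 3 reached the WT range. The log2 fold change in *Kmt2c* KO cells was -2.04 (SE 0.36, adjusted p = 0.11), with an adjusted p of 4.6e-05 with the block, and it was called without *Kmt2c* KO replicate 3 (-2.43, adjusted p = 0.054). *Bambi*, a pseudoreceptor that lacks a kinase and dampens TGF-beta signals, was at 5.96, 5.80 and 5.02 CPM without a KO, 14.00, 16.8 and 6.97 with *Kmt2c* KO and 15.3, 18.2 and 11.6 with *Kmt2d* KO. Every KO library exceeded every WT library. The log2 fold changes were 1.15 (SE 0.32, adjusted p = 0.41) and 1.43 (SE 0.32, adjusted p = 0.21), and the block gave adjusted p-values of 0.0042 and 8.6e-04.

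*Ltbp2*, a matrix protein of the latent TGF-beta binding protein family, was at 25.9, 25.8 and 11.8 CPM in WT replicates, compared with 49.9, 50.2 and 21.4 after loss of *Kmt2c* and 30.00, 35.9 and 21.7 after loss of *Kmt2d*. *Kmt2c* KO exceeded WT within each replicate number, while the groups overlapped through replicate 3. The log2 fold change was 0.93 (SE 0.40, adjusted p = 0.83) without and 0.91 (adjusted p = 0.0021) with the block, and its exons overlap a gene on the other strand. *Pmepa1* was near the limit of detection, at 0.238, 0.306 and 0.0228 CPM in WT and 0.902, 0.485 and 0.636 CPM in *Kmt2c* KO cells. All 3 KO libraries were higher, on 18 to 27 reads each, at 1.85 (SE 0.93, adjusted p = 0.96) without and an adjusted p of 0.087 with the block. *Id1*, a BMP target, was at 22.99, 22.3 and 22.5 CPM (WT), 34.6, 32.8 and 33.3 CPM (*Kmt2c* KO) and 34.5, 31.8 and 34.4 CPM (*Kmt2d* KO). Its libraries were tight and the KO libraries all higher, but log2 fold changes of 0.56 (SE 0.13, adjusted p = 0.3) and 0.58 (SE 0.13, adjusted p = 0.22) were under the fold threshold, also with the block (adjusted p = 0.0055 and 0.0053). The 2 KO pools, set against each other, gave 0 called genes, beside 0.253% of all genes. At an unadjusted p under 0.05 there were 2, beside 616 of all 12253 genes. DESeq2 called 1 (*Grem1*), beside 1.92%. Without replicate 3 of every genotype 6 were called, beside 9.29%. With the block 2 were called, beside 5.33% of all genes, *Grem1* lower (-1.56, adjusted p = 5.8e-04 with and 0.28 without) and *Chrd* higher in *Kmt2c* KO cells (1.28, 0.089 and 1).

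**Figure D4:**
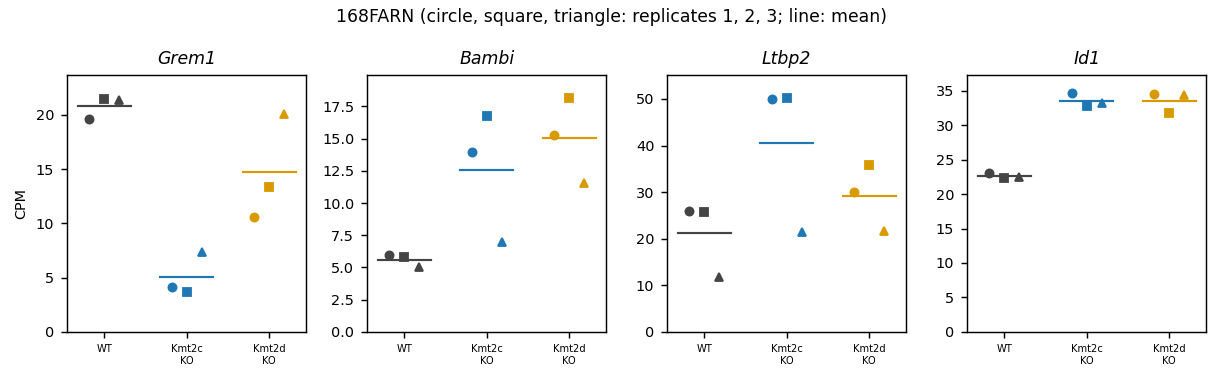
Level of *Grem1*, *Bambi*, *Ltbp2* and *Id1* in the 9 libraries of 168FARN, in CPM on a linear axis that starts at 0. Symbols give replicates 1 to 3 and lines the means of 3. *Grem1* is lowest in *Kmt2c* KO cells, *Bambi* and *Id1* are higher in all 6 KO libraries than in WT, and none of the 4 was called by the test without a replicate block.

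Whether a KO effect differed between the lines was tested as an interaction over all 18 libraries, on 13902 genes and 42 of the genes described here. The *Kmt2c* KO effect differed for 11 genes, 3 with a higher log2 fold change in 67NR than in 168FARN and 8 with a lower one, or 26.2% beside 15.8% of all genes (9.5% higher and 6.27% lower). Those with a lower one were *Tgfb2*, *Inhba*, *Ltbp3*, *Bmp1*, *Fst*, *Tgfbr1*, *Tgfbr2* and *Pmepa1*, and those with a higher one *Acvr1*, *Acvrl1* and *Tgfbr3*. The *Kmt2d* KO effect differed for 6 genes, or 14.3% beside 10.5% of all genes (7.38% higher and 3.09% lower), lower in 67NR for *Tgfb2*, *Ltbp3*, *Bmp1* and *Smad3* and higher for *Acvrl1* and *Tgfbr3*. For *Bmp1* the log2 fold change in *Kmt2c* KO cells was 0.60 in 168FARN, from 29.5, 30.2 and 23.7 CPM in WT and 48.5, 48.1 and 31.01 CPM in KO libraries, and -1.44 in 67NR. These differ by -2.03 (SE 0.31, adjusted p = 3.1e-04). 168FARN libraries held *Tgfbr3* at 107, 109 and 78.6 CPM in WT and 149.5, 146 and 90.7 CPM in *Kmt2c* KO cells, beside 94.1 to 139 CPM in the KO pools of 67NR, and the effects differed by 2.86 (SE 0.46, adjusted p = 5.9e-04). *Pmepa1* and *Tgfb2* were so low in 168FARN, under 1 CPM in all 9 libraries, that their differences of -4.60 (SE 0.77, adjusted p = 7.9e-04) and -4.22 (SE 1.10, adjusted p = 0.02) rest on few reads there.

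With the replicate block, 23 genes differed in the *Kmt2c* KO effect, beside 34.5% of all genes, and 15 in the *Kmt2d* KO effect, beside 28.2%. Without replicate 3 of every genotype 20 and 18 differed, beside 38% and 32.5% of all genes. The 12 genes added for *Kmt2c* KO were *Bmp7*, *Ltbp2*, *Ltbp4*, *Acvr1b*, *Acvr2b*, *Smad2*, *Smad3*, *Skil*, *Tgif1*, *Id1*, *Id2* and *Id3*, with adjusted p-values from 0.15 to 0.74 without and from 2.3e-06 to 0.086 with the block. Those added for *Kmt2d* KO were *Ltbp2*, *Ltbp4*, *Fst*, *Chrd*, *Tgfbr1*, *Acvr1*, *Acvr2b*, *Id1* and *Id2*, with adjusted p-values from 0.22 to 0.49 without and from 3.5e-05 to 0.046 with the block. Leaving out 1 library gave 7 to 13 and 4 to 7 calls, and 7 were called for *Kmt2c* KO without 168FARN WT replicate 2 or 67NR *Kmt2c* KO replicate 2. *Acvr1*, *Tgfbr2* and *Smad3* lost their calls in 8 or 9 of the 12 fits, *Acvrl1* in 5 for *Kmt2c* KO and 8 for *Kmt2d* KO, *Fst* in 5, and *Tgfb2* for *Kmt2d* KO in 1, without 168FARN *Kmt2d* KO replicate 2.

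**Figure D5:**
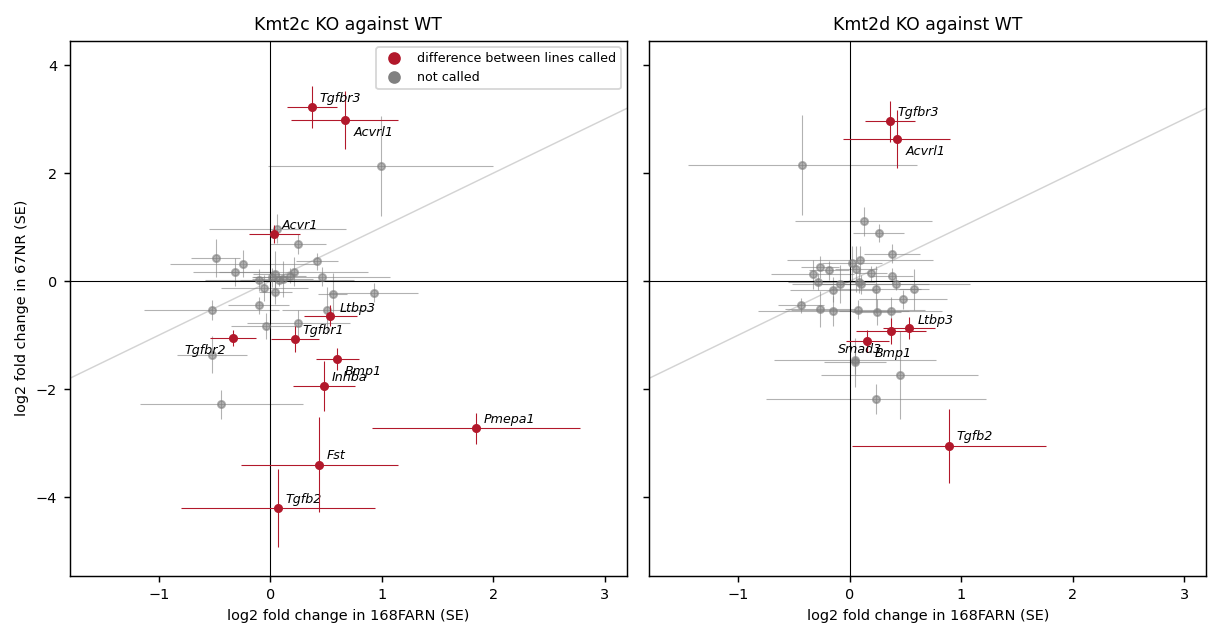
Log2 fold change of each KO against WT in 168FARN (horizontal) and 67NR (vertical), with standard errors as bars, for the genes tested in both lines. Red points are genes whose effect differed between the lines, grey points are the others, and the grey diagonal marks equal effects. The red points spread from -4.20 to 3.22 on the 67NR axis and from -0.34 to 1.85 on the 168FARN axis.

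WT cells of the lines differed in most of these genes. In 67NR against 168FARN WT cells, 20 genes were higher and 8 lower of 42, or 66.7% beside 39.3% of all genes (21.3% higher and 17.9% lower), and the median log2 fold change was 0.61 against -0.01 over all genes. Line, the making of the WT group and the processing of each line's table cannot be told apart here. *Pmepa1* was at 0.238, 0.306 and 0.0228 CPM in 168FARN and 244, 231 and 475 CPM in 67NR, a log2 fold change of 10.78 (SE 0.70, adjusted p = 1.5e-08). *Tgfb2* was at 0.0341, 0.183 and 0.365 CPM in 168FARN, against the 67NR levels above, at 7.67 (SE 0.88, adjusted p = 5.1e-06), and *Inhba* at 3.10, 4.06 and 3.01 CPM, at 5.20 (SE 0.45, adjusted p = 3.1e-07). *Bmp7* had 4 reads in 1 of the 3 168FARN WT libraries and *Inhbb* none, against 46.2 to 69.8 CPM and 3.45 to 6.63 CPM in 67NR. These ligand genes and *Pmepa1* were separate between the lines in every WT library.

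The reverse held for *Grem1*, which had 2 reads in 1 of the 9 libraries of 67NR, and *Bambi*, which had 2 reads in another, while every 168FARN library had at least 3.67 CPM of *Grem1* and 5.02 CPM of *Bambi*. *Tgfbr3* was lower in 67NR WT cells by a log2 fold change of -2.83 (SE 0.34, adjusted p = 8.7e-06) and *Acvrl1* by -4.26 (SE 0.57, adjusted p = 2.2e-05). *Skil* was at 20.03, 16.96 and 19.9 CPM in 168FARN and higher in 67NR, at 3.70 (SE 0.37, adjusted p = 1.1e-06). Among receptors and Smads, *Tgfbr1* (1.28, SE 0.25, adjusted p = 7.4e-04), *Tgfbr2* (1.70, SE 0.17, adjusted p = 1.4e-06), *Acvr2b* (1.56, SE 0.40, adjusted p = 0.0061), *Smad3* (1.23, SE 0.30, adjusted p = 0.0047) and *Smad7* (1.75, SE 0.48, adjusted p = 0.0097) were higher in 67NR. Of the 5 targets, *Id3* (1.998, SE 0.45, adjusted p = 0.0024), *Id4* (5.02, SE 0.73, adjusted p = 5.5e-05) and *Pmepa1* were higher and *Id2* lower (-1.16, SE 0.48, adjusted p = 0.074). The other genes called higher in 67NR were *Ltbp2*, *Ltbp3*, *Bmp1*, *Bmpr2*, *Smad1*, *Smad4* and *Smad5*, with log2 fold changes from 0.70 to 2.75, and the others called lower were *Chrd* (-3.37), *Acvr1* (-0.76) and *Ski* (-0.73). *Id2* lost its call in 4 of the 6 fits without 1 library and *Smad5* (0.84, adjusted p = 0.052) in 4, and *Smad1* (0.70, adjusted p = 0.03) without 168FARN WT replicate 3 (0.49, adjusted p = 0.12). For WT cells the replicate block was shared by both lines, although the labels do not pair numbers between lines. In the interaction tests it was set within each line. With the shared block, *Ltbp4* (-0.85, adjusted p = 0.079 with and 0.2 without) and *Smad6* (1.23, 0.02 and 0.12) were called as well, beside 45.4% of all genes. These p-values are from the quasi-likelihood test of edgeR and Benjamini-Hochberg adjustment.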

How the data were processed

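The authors made strand-specific mRNA libraries, sequenced read pairs, used the VIPER pipeline with STAR and the mm9 genome and deposited raw read counts per gene symbol, 1 table per line, without normalization. Gene counting was part of that pipeline, and its strand setting is not given in the sources used here. Counts were tested with edgeR 4.0.16 in R 4.3.3: TMM normalization, edgeR's filter on low counts, and the quasi-likelihood test with robust dispersions on the 9 libraries of a line (18 for tests between lines), with genotype as the only factor. The scripts were tested on simulated data, which held no difference between replicate numbers, unlike the libraries here. Python 3.11.15 was used for promoters and plots. RPKM used exon lengths of an mm9 annotation. Each column matched 1 sample, with 0 left over.

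The thresholds, adjusted p under 0.1 and absolute log2 fold change over 0.6, were chosen here. Genes named are those called in a KO, the member with the smallest p of a class without a call, and those called only with the replicate block. The genes and lists were chosen with earlier results of these data known. Alternatives were DESeq2 1.42.0, its size factors, total counts, no filter, a stricter p, the 6 libraries of 2 groups alone, no replicate 3, each library left out and the replicate number as a block.

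Same-numbered libraries deviated together from their group means, with correlations of 0.684 to 0.725, 0.650 to 0.738 and 0.856 to 0.897 for numbers 1, 2 and 3 in 168FARN and 0.384 to 0.423, 0.351 to 0.426 and 0.535 to 0.717 in 67NR, all over 0.1, the level taken here to pair samples by number. Libraries numbered 1 and 2 also correlated with each other (0.623 to 0.728 and 0.284 to 0.523), and both against number 3 (-0.825 to -0.708 and -0.603 to -0.420), so the pairing sets number 3 apart and does not separate numbers 1 and 2. Deviations from a group mean cancel within the group, so part of the negative correlation follows from the centring. The study removed collection time as a batch for heatmaps and tested genotype alone. The main tests here also left the replicate number out, and only the replicate block used it.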

Additional observations from a re-analysis of the deposited data

Results flagged for a closer look

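For 17 results, the effect of a KO differed between the lines by the interaction test. For *Kmt2c* KO, the log2 fold change in 67NR minus that in 168FARN was -4.22 for *Tgfb2*, -2.41 for *Inhba*, -1.16 for *Ltbp3*, -2.03 for *Bmp1*, -3.82 for *Fst*, -1.27 for *Tgfbr1*, -0.70 for *Tgfbr2* and -4.60 for *Pmepa1*. It was 0.86 for *Acvr1*, 2.33 for *Acvrl1* and 2.86 for *Tgfbr3*. For *Kmt2d* KO it was -3.89 for *Tgfb2*, -1.38 for *Ltbp3*, -1.24 for *Bmp1*, -1.28 for *Smad3*, 2.23 for *Acvrl1* and 2.62 for *Tgfbr3*. Adjusted p-values ran from 3.1e-04 to 0.088, by the quasi-likelihood test of edgeR and Benjamini-Hochberg adjustment.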

How the results depend on the processing

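No named result turned its direction under an alternative. Replicate block: 4, 1, 2 and 5 genes were called for 168FARN *Kmt2c* KO, 168FARN *Kmt2d* KO, the KO pools of 168FARN and those of 67NR set against each other, in place of 0, and 23 and 15 for the *Kmt2c* and *Kmt2d* KO effect between lines, in place of 11 and 6. Among the 48 genes, the block changed the calls named in the report and no other. Without replicate 3 of every genotype: 7, 2, 6 and 8, and 20 and 18. DESeq2: 3, 1, 1 and 1. With each library left out, the counts were 0 to 2 for 168FARN *Kmt2c* KO, 0 for 168FARN *Kmt2d* KO and for both direct comparisons of KO pools, 17 to 21 and 12 to 15 in 67NR, 7 to 13 and 4 to 7 between lines, and 26 to 29 between WT cells. Over all counts and settings, 122 stayed within 1.5 times the reported count and 19 did not, and of the values for single genes 1189 kept their side of the threshold, 79 lost it and 14 gained it. Halving the 67NR counts, chosen after seeing the data, gave 20, 14, 0, 11, 7 and 29 calls for the comparisons with 67NR libraries. *Acvr1* then lost its *Kmt2c* KO difference between lines (0.76, adjusted p = 0.11). For the halved counts and for each library left out, the share over all genes is not given here. Those counts therefore do not show whether other genes moved alike. Limits: 3 libraries a group; low counts in 168FARN for *Tgfb2* and *Pmepa1*; unknown strand setting for overlapping genes; RNA only, so ligand protein and Smad activity were not measured.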

Other observations

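Of 56 other genes of the pathway, listed from general knowledge, 30 were tested in 67NR. In *Kmt2c* KO cells 7 rose and 7 fell, or 46.7% beside 35.3% of all genes, and in *Kmt2d* KO cells 6 rose and 8 fell, or 46.7% beside 25.5%, by the quasi-likelihood test of edgeR and Benjamini-Hochberg adjustment. Genes for activating latent TGF-beta differed in direction. *Itgb6*, a subunit of an integrin that frees latent TGF-beta, was at 14.4, 15.7 and 16.2 CPM (WT), 0.664, 1.08 and 0.529 CPM (*Kmt2c* KO) and 3.28, 2.64 and 2.22 CPM (*Kmt2d* KO). Every KO library was lower than WT. Its partner *Itgav* rose, from 248, 262 and 246 CPM to 424, 496 and 517 and 512, 481 and 496 CPM, and *Thbs1*, which encodes thrombospondin 1, another activator, fell from 1021, 1048 and 1555 CPM to 65.4, 67.1 and 150.2 and 103, 105 and 313 CPM.

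Of the matrix genes often used as TGF-beta readouts, *Ctgf*, *Postn* and *Fn1* fell in both KO pools of 67NR. *Ctgf*, a matricellular growth factor, was at 393, 454 and 355 CPM without a KO, 3.38, 3.46 and 56.7 with *Kmt2c* KO and 18.6, 15.9 and 81.2 with *Kmt2d* KO, with replicate 3 highest in each KO. Its *Kmt2d* KO call was lost in 4 of the 6 fits that left out 1 library. *Postn*, which encodes periostin, was at 57.6, 66.4 and 91.00 CPM in WT and at most 0.155 CPM in any KO library. The BMP target *Msx2*, from 0.449, 0.535 and 0.398 CPM to 9.72, 9.997 and 11.3 and 6.62, 6.83 and 6.51 CPM, and *Snai2*, which encodes a factor of epithelial-mesenchymal transition, from 2.19, 2.81 and 1.92 CPM to 29.6, 34.6 and 62.4 and 36.2, 36.5 and 41.02 CPM, rose in both, as did *Bmper*, which encodes a BMP-binding protein, from 0.865, 0.844 and 0.575 CPM to 6.68, 7.63 and 16.6 and 7.27, 7.35 and 14.7 CPM. In 168FARN, 0 of the 27 tested were called in either KO, beside 0.359% and 0.286% of all genes. At an unadjusted p under 0.05 there were 2 and 4, beside 725 and 647 of all 12253 genes. DESeq2 called none for *Kmt2c* KO (2.35% of all genes) and 2 for *Kmt2d* KO (2.02% of all genes), *Tgfbi* higher (1.91, adjusted p = 4.5e-04) and *Snai2* lower (-1.99, adjusted p = 0.0015), and the replicate block called 5 for each, beside 7.23% and 5.9% of all genes. The 5 were *Gdf11*, *Rgma* and *Tgfbi* (higher) and *Eng* and *Hey1* (lower) for *Kmt2c* KO, and *Tgfbi*, *Fn1* and *Ldlrad4* (higher) and *Gdf15* and *Snai2* (lower) for *Kmt2d* KO.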
